A study of Mus musculus with 3 samples.

Results

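The immediate early genes examined here are Fos, Fosb, Jun, Junb, Jund, Egr1, Egr2, Ier2, Atf3 and Klf4, 10 of the 22359 protein-coding genes of the GENCODE vM1 annotation. They were taken by name, with earlier results of these data known. In wild-type mouse distal forelimbs dissected at E12.5, the chromatin-bound positions of RNA polymerase II (RNAP2) and of the Mediator subunit Med12 were mapped by ChIP-seq. RNAP2 here means what the Abcam antibody of the study binds. Whether it binds every phosphorylated form of the polymerase alike was not examined, so the peaks may not show total RNAP2. The stage is that of the sample labels, whereas the design text of the series has E11.5. A single library was made per antibody, so that no value below has a replicate error and no test was possible. The limbs were dissociated to single cells with collagenase before fixation. Undissociated tissue was not analysed here, and occupancy of the intact limb and occupancy acquired while the cells were prepared cannot be told apart. Peaks were assigned to a gene when they overlapped its span or lay within 50 kb of its start, the outermost 5′ end of the gene in mm9. A start peak is one that lies no more than 1 kb from where a coding transcript of the gene begins. For every peak the deposited lists hold a position and a score (-log10 of the p-value, multiplied by 10) but no read counts, so the depth behind a peak is unknown. Scores were ranked within a list and were not compared between the lists.

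Immediate early genes are transcribed within minutes of a stimulus without new protein synthesis. Growth factor signalling reaches them through SRF and its TCF partners at CArG boxes, and through CREB at cyclic AMP response elements, and their promoters hold polymerase that is released into elongation by kinases recruited with Mediator. Fos and Jun proteins pair to form the AP-1 transcription factor, Egr1 and Egr2 are zinc finger factors, and several of these genes are known to be induced when tissue is dissociated by enzymes. Med12 belongs to the kinase module of Mediator, which carries signals from factors bound to enhancers and promoters to RNAP2.

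All 10 genes had an RNAP2 start peak, against 41.8% of all coding genes, and 7 of the 10 also had a Med12 peak at the same start, against 8.21%. The genes with both are Fos, Jun, Junb, Jund, Egr1, Ier2 and Klf4. In tissue with several cell types, fewer cells with a bound gene and less binding per cell cannot be told apart. The sequence before the start of 5 of the 7 is given here to show which known elements lie under the RNAP2 peaks. Each line holds 300 bases of mm9 read in the direction of transcription, from 310 bases before the outermost start. Capitals mark matches to the CArG box, the binding site of SRF, to TGACGT, the core of a cyclic AMP response element, and to GCGNGGGCG, the site of EGR factors, on either strand, and to TATAAA on the sense strand. A match is a description of the letters alone. The stretches are chr12:86814530-86814829 on the plus strand for Fos, and on the minus strand chr4:94718924-94719223 for Jun, chr8:87502628-87502927 for Junb, chr8:87186762-87187061 for Ier2 and chr4:55545358-55545657 for Klf4.
Fos: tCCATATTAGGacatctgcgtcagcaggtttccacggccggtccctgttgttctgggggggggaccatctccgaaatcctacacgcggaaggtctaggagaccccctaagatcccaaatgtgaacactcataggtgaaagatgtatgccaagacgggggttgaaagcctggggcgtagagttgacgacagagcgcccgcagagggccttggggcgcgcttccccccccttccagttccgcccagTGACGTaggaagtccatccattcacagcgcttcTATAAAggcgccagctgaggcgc
Jun: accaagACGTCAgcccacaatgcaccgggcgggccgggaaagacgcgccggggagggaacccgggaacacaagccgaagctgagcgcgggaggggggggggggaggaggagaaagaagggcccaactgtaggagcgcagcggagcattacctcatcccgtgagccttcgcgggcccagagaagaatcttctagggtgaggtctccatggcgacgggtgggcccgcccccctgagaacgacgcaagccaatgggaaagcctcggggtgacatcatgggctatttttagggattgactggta
Junb: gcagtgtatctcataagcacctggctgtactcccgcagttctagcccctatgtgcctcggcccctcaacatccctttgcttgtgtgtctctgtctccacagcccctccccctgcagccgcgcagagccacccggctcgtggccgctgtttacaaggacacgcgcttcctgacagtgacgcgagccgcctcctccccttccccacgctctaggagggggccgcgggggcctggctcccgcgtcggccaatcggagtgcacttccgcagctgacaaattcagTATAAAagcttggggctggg
Ier2: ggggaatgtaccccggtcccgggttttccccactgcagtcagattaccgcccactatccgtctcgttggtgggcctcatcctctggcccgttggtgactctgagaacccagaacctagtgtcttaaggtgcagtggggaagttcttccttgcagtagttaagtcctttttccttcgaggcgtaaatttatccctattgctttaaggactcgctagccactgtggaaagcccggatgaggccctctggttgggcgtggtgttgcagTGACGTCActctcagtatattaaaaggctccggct
Klf4: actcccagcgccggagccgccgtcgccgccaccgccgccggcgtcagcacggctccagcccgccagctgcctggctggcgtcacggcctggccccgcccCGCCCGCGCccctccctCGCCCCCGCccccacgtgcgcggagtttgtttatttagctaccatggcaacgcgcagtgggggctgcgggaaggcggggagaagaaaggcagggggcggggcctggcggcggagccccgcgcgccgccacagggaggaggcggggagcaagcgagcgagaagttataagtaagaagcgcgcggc

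Between 400 bases before and 100 bases after the outermost start, a CArG box was found in 3 of the 10 genes (Fos, Fosb and Egr1), against 2.47% of all coding genes. Egr1 had 4 of them, beginning 369, 353, 105 and 83 bases before its start. TGACGT was found in 6 genes (Fos, Fosb, Jun, Egr1, Ier2 and Atf3), against 10.9% of all coding genes. In Fos the CArG box began 309 bases before the start, TGACGT 66 bases before it and TATAAA 33 bases before it. In Ier2 the match is a full palindrome read on both strands, 45 to 38 bases before the start. The AP-1 site in the form TGANTCA was in none of the 10 windows, against 11.1% of all coding genes. With 10 windows this is near that share, and other forms of the AP-1 site were not searched. GCGNGGGCG was in the windows of Fosb and Klf4, against 8.96%, and TATAAA in those of Fos and Junb, against 13.9%. The outermost annotated starts of Jund and Egr2 lie outside their RNAP2 peaks. A search at all their coding starts, among them those that the peaks cover, was added after the values were seen. It was run for these genes alone, and the shares above, which are for outermost starts, do not apply to it. At 67000617 in Egr2, 2 CArG boxes began 375 and 72 bases before the start and TGACGT 56 bases before it. At 73222857 in Jund there were 3 matches to TGACGT and 3 to GCGNGGGCG but no CArG box. The TGACGT matches that lie 223 to 216 bases before that start are a single palindrome read on both strands.

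Among the AP-1 genes, Fos, the gene first found as a retroviral oncogene, had the widest RNAP2 start peak of the 10. It covered 8335 bp, wider than 99.5% of the start peaks of the 9349 coding genes that had one, and had a score of 3100. It began 2352 bp before the start of Fos at 86814840 on chromosome 12 and ran past the 3′ end of the gene by 2599 bp, so that the whole span of 3384 bp lay under it. The Med12 peak at Fos was 1083 bp wide with a score of 57.4, higher than 38.6% of the Med12 start peaks of the 2007 coding genes with one. It reached from 544 bp before to 538 bp after the start, inside the RNAP2 peak.

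Jun, the main partner of Fos in AP-1, had an RNAP2 peak of 6521 bp with a score of 3100, from 2091 bp before its start at 94718913 on chromosome 4 to 1241 bp past its 3′ end. Its Med12 peak was the widest of the 10 genes, at 2540 bp, and lay 1204 bp before to 1335 bp after the start. The width was above 99.5% and the score of 297 above 97.2% of Med12 start peaks. Both peaks also covered the annotated starts of BC042782 on the other strand, which lie 688 bp after and 729 bp and 1018 bp before that of Jun, and ChIP-seq does not assign RNAP2 to a strand. The start of Gm12703, downstream of Jun, lay under the RNAP2 peak alone.

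Junb, which is a weaker activator than Jun, had an RNAP2 peak of 5015 bp with a score of 3100, from 1762 bp before its start at 87502617 on chromosome 8 to 1446 bp past its 3′ end. Med12 was present as the narrowest Med12 start peak of the 7 genes with one, 725 bp wide with a score of 44.2. Only 11.7% of Med12 start peaks had a lower score. A further Med12 peak of 953 bp and a score of 41.3 lay across the 3′ end of Junb, 1655 to 2607 bp from the start, within the same RNAP2 peak. Both scores are below 50, the score of the p-value threshold of 1e-05 in the methods of the study.

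Jund, the most broadly expressed of the Jun genes, had an RNAP2 peak of 4183 bp with a score of 3100 and the highest Med12 score of the 10 genes, 394, above 98.7% of Med12 start peaks. Jund has a pair of coding starts in the annotation. The peaks of both lists began after the outer start at 73221638, by 57 bp and 307 bp, and covered the inner one at 73222857 on chromosome 8. From that inner start the RNAP2 peak reached 1162 bp upstream and 3020 bp downstream. Med12 was 1724 bp wide. The start of Gm11175, a coding model annotated on the opposite strand, lay under the RNAP2 peak.

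Fosb, a Fos paralogue, differed in having no Med12 peak at its start or anywhere in its neighbourhood. Its RNAP2 start peak on chromosome 7 was 2830 bp wide with a score of 1113, from 549 bp before to 2280 bp after the start at 19895394. RNAP2 was listed again further along the gene, in a stretch of 1560 bp scoring 106 and another of 3588 bp scoring 416, the latter across the 3′ end from 5616 to 9203 bp after the start and within 1 kb of the start of Gm17589. The gene is 7325 bp long, and 75.8% of it lay under RNAP2 peaks. Atf3, a stress-induced factor that can pair with Jun, also had no Med12 peak within 50 kb. Its RNAP2 peak was the narrowest of the 10 genes, at 1889 bp, and still wider than 73.5% of start peaks. Its score of 2209.55 was above those of Fosb, Egr2 and Klf4. It ended 1061 bp into a gene of 13045 bp, of which 8.14% was covered.

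The EGR genes were unlike each other. Egr1 had the RNAP2 peak next in width to that of Fos, 7434 bp with a score of 3100, from 1633 bp before its start at 35020861 on chromosome 18 to 2023 bp past its 3′ end. Its Med12 peak of 1296 bp lay 480 bp before to 815 bp after the start, and its score of 264 was above 96.4% of Med12 start peaks. The start of Gm17507, a coding model on the opposite strand, lay under the RNAP2 peak beyond the 3′ end of Egr1. Egr2, known for its role in hindbrain segments and myelinating cells, had an RNAP2 peak of 2889 bp with a score of 1408 and no Med12 peak in the neighbourhood. The RNAP2 peak of Egr2 covered the coding start at 67000617 on chromosome 10, from 2185 bp before to 703 bp after it, and 43% of the gene.

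Ier2, a short gene for a nuclear protein of the early growth response, had a pair of RNAP2 peaks at its start at 87186751 on chromosome 8, separated by 31 bp. The downstream one of 4374 bp and a score of 3100 covered the start and the whole gene and ended 2206 bp past its 3′ end. The upstream one of 2606 bp and a score of 3161 also held the start of the long noncoding RNA gene Gm2529, 2276 bp away on the other strand. Med12 did not cover the start of Ier2. A Med12 peak of 1446 bp and a score of 99.4, above 75% of Med12 start peaks, lay 723 to 2168 bp upstream, closer to the start of Gm2529 than to that of Ier2, and another with a score of 49.1 across the 3′ end, 1518 to 2539 bp from the start. Klf4, a zinc finger factor of epithelia and pluripotent cells, had an RNAP2 peak of 3583 bp with a score of 1587 that extended 2423 bp before its start at 55545347 on chromosome 4 and 1159 bp into the gene. The Med12 peak of Klf4 lay upstream too, 687 to 1645 bp before the start, with a width of 959 bp and a score of 48.7.

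**Figure D1:**
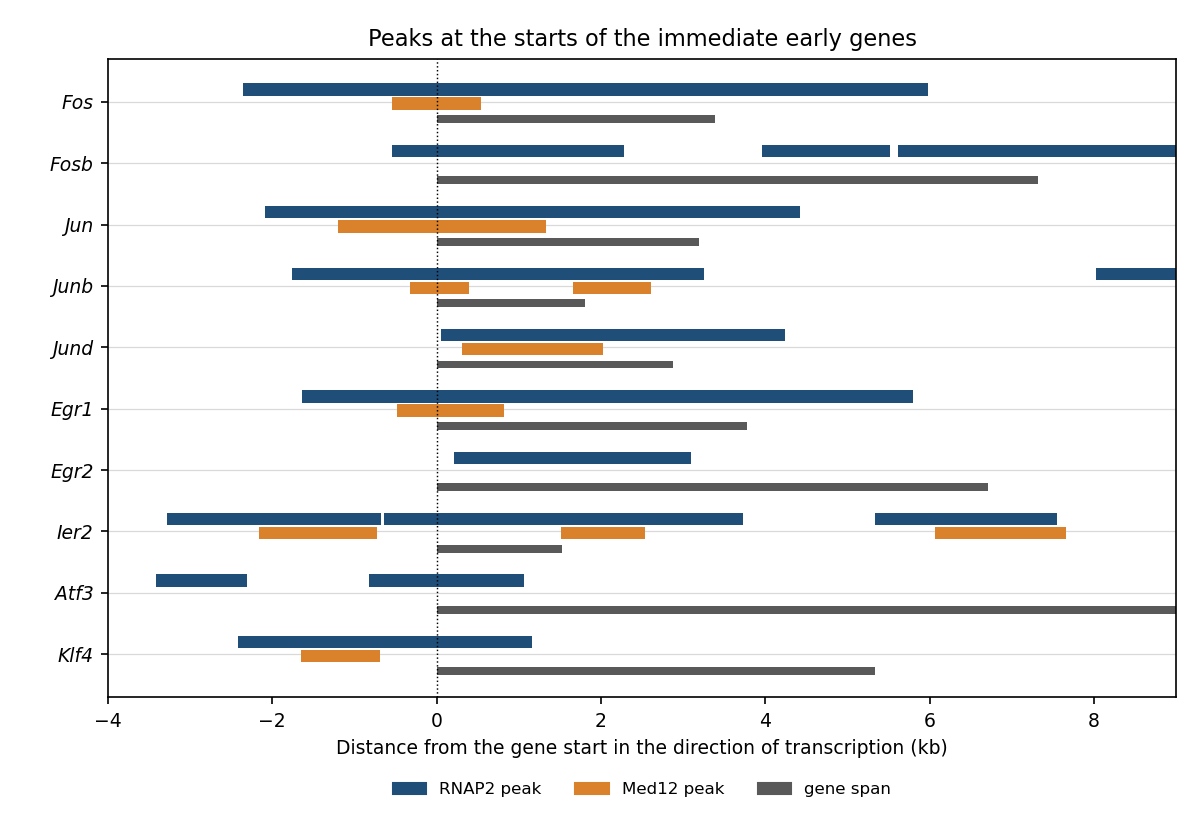
Peaks of RNAP2 (blue) and Med12 (orange) at each immediate early gene, drawn to scale against the distance in kb from the outermost gene start in the direction of transcription, with the gene span in grey. The RNAP2 peaks of Fos, Jun, Junb, Jund, Egr1 and Ier2 run past the 3′ end of the gene, and Fosb, Egr2 and Atf3 have no Med12 peak.

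The median width of the widest RNAP2 start peak was 4278.5 bp over the 10 genes, with a range of 1889 to 8335 bp, and 1500 bp over the 9349 coding genes with such a peak. A width of 4 kb or more was reached by 6 of the 10, against 2.57% of coding genes with a start peak. The same 6 genes, Fos, Jun, Junb, Jund, Egr1 and Ier2, had an RNAP2 score of 3100 or more, against 3.74%. Because 311 RNAP2 peaks are tied at 3100, the score ranks none of those tied above another. Width goes with score over all genes as well: the 350 coding genes with a start score of 3100 or more had a median width of 2892 bp, and 30.3% of them reached 4 kb, whereas the 6 immediate early genes at this score were 4183 to 8335 bp wide. These are also short genes. Their median span was 3581 bp, against 23638 bp for all coding genes with an RNAP2 start peak, and the median share of the span under RNAP2 peaks was 99% against 4.8%. The part of span and score in the width was not tested.

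**Figure D2:**
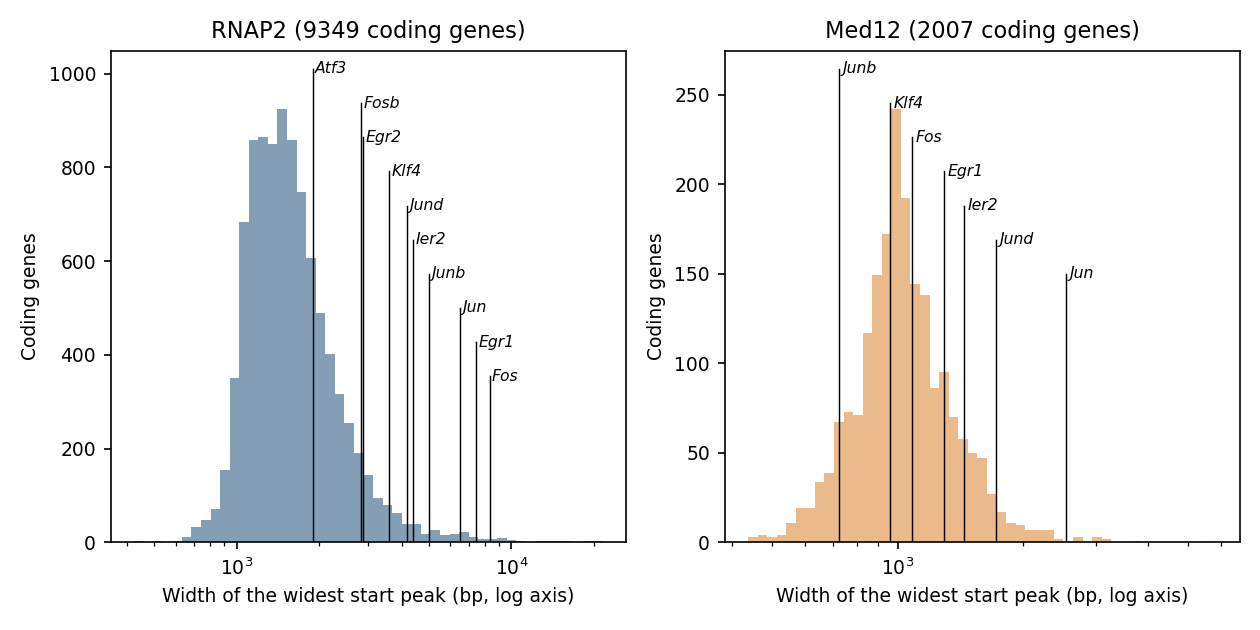
Histograms of the width in bp (log axis) of the widest start peak over coding genes, for RNAP2 (9349 genes) and Med12 (2007 genes), with a line for each immediate early gene that has one. For RNAP2 the line of Fosb lies above 92.8% of the genes and 8 lines lie to its right, and the Med12 lines run from 725 bp for Junb to 2540 bp for Jun.

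Med12 was found within 1 kb of a coding start in 8.98% of all coding genes and in 19.6% of those with an RNAP2 peak at the same start. Its presence followed the RNAP2 score over the genome, from 18.2% of genes with a start score under 3100 to 57.4% of those at 3100 or more. All 6 immediate early genes at 3100 or more had Med12, and of the 4 with a lower score, Klf4 had it and Fosb, Egr2 and Atf3 did not. The Med12 scores of 48.7 at Klf4 and of 44.2 at Junb, which is among the 6, are under 50. At 50 or more none of the 4 genes had Med12, and Junb lost it too. The shares of 18.2% and 57.4% are without this limit. Over the 7 genes the median Med12 width was 1296 bp (range 725 to 2540 bp), against 1013 bp over all coding genes with a Med12 start peak. Med12 covered a coding start in 5 genes (Fos, Jun, Junb, Jund and Egr1), against 7.27% of all coding genes. The order of the genes by Med12 was not that by RNAP2. Fos, with the widest RNAP2 peak, had a Med12 score of 57.4, below those of Jund, Jun, Egr1 and Ier2.

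In all, 39 RNAP2 peaks and 15 Med12 peaks lay in the neighbourhoods of the 10 genes. The number of RNAP2 peaks ranged from 1 at Jun and Klf4 to 10 at Ier2, with a median of 3.5 against 1 for all coding genes, and that of Med12 peaks from 0 to 5, with a median of 1 against 0. These counts include the start peaks, which all 10 genes had for RNAP2, against 41.8% of all coding genes. No peak was shared between neighbourhoods, the closest members being Junb and Ier2 at 315866 bp. Of the 28 RNAP2 peaks that were not start peaks of these genes, 16 lay within 1 kb of an annotated start of some gene, among them Vasp and Ercc1 near Fosb, Prdx2 and Hook2 near Junb, Lsm4 and Pgpep1 near Jund, Ado near Egr2 and Nacc1 near Ier2. Lsm4, a part of the spliceosome, had a Med12 peak at its start with a score of 151, and Nfix, near Ier2, had one with a score of 168 within 1 kb of a start. The other 12 lay away from every start. Besides those with Med12 they had scores of 40 to 159.61 and included a peak 2310 to 3421 bp upstream of Atf3, one 5341 to 6459 bp upstream of Jund, one 8971 to 10586 bp upstream of Fosb and 3 between Egr1 and the end of its neighbourhood, 2 of them in exons of Etf1. Jun and Klf4 had no peak of either list within 50 kb other than those at their starts.

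A site away from every annotated start with overlapping peaks of both lists was found 3 times, at Fos, where there were 2, and at Ier2, so that 2 of the 10 genes had one, against 7.71% of all coding genes. The site upstream of Fos held an RNAP2 peak of 2075 bp with a score of 2129, from 19431 to 17357 bp before the start, and a Med12 peak of 1335 bp with a score of 156 within it. The downstream one held an RNAP2 peak of 3568 bp with a score of 1876, from 10874 to 14441 bp after the start, and a Med12 peak of 2355 bp with a score of 296. Both Med12 scores at these intergenic sites were higher than the 57.4 at the start of Fos. They were above 91.3% and 97.4% of all Med12 peaks, and the RNAP2 scores above 96.6% and 95.8% of all RNAP2 peaks. At Ier2 an RNAP2 peak of 2210 bp with a score of 879, 5337 to 7546 bp after the start, overlapped Med12 peaks with scores of 138 and 42.2.

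The sequences at the middle of the Med12 peaks beside Fos are given because the highest Med12 scores of that locus lie there. Each is 300 bases of the plus strand of mm9, chr12:86796333-86796632 for the upstream site, centred at -18357 bp from the start of Fos, and chr12:86827491-86827790 for the downstream site, centred 12801 bp after it. Capitals mark TGACGT on either strand.
Fos upstream site: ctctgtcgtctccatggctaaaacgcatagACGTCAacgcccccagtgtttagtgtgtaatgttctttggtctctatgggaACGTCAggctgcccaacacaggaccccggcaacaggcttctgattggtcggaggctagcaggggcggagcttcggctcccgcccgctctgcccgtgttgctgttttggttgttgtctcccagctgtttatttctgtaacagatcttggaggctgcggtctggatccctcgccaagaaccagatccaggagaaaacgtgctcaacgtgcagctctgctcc
Fos downstream site: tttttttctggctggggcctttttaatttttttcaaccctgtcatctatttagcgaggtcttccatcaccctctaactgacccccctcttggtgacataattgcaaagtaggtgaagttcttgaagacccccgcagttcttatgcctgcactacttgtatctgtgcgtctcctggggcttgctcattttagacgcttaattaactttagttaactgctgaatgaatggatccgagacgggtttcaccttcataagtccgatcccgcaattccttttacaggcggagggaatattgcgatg
The upstream stretch holds TGACGT at 2 positions, and 3.21% of the windows of this length at the middle of all distal sites with both peaks held it. The downstream stretch has no match to TGACGT, the CArG box, TGANTCA or GCGNGGGCG.

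**Figure D3:**
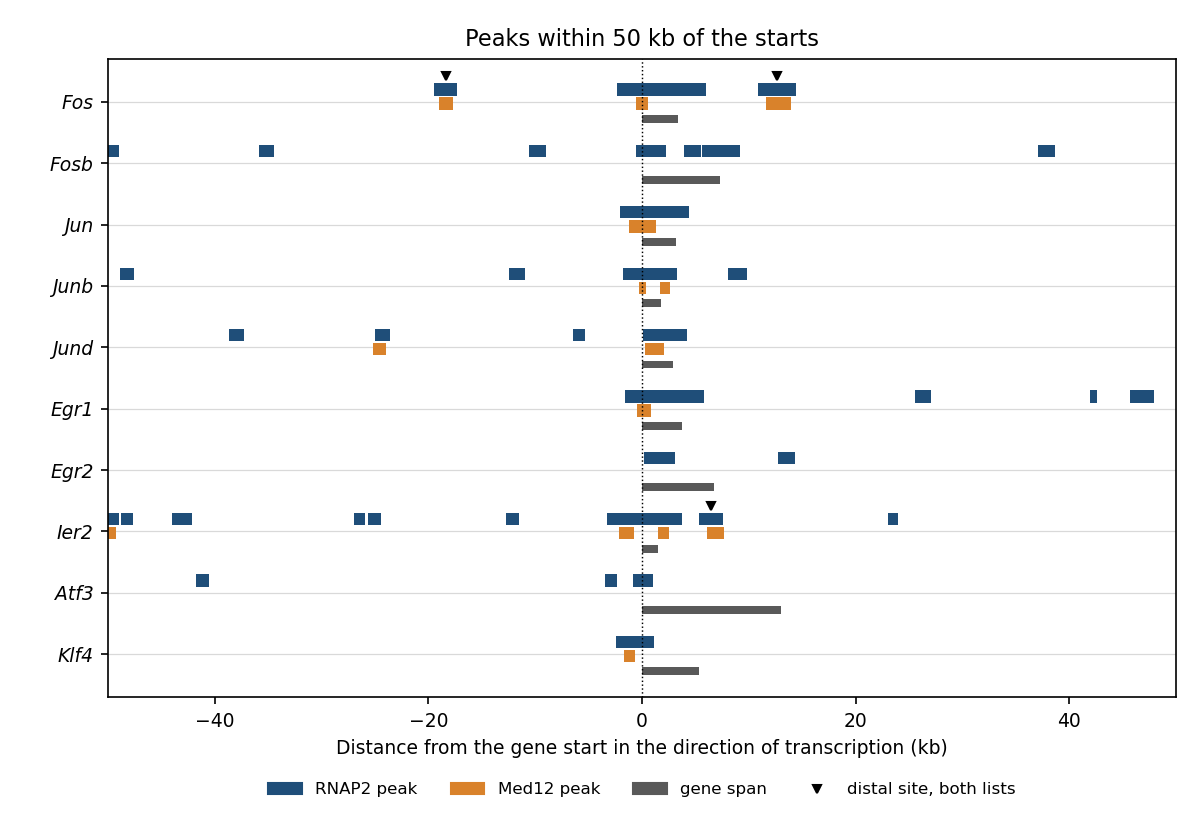
Every peak within 50 kb of the start of each immediate early gene, drawn to scale in kb in the direction of transcription, with RNAP2 in blue, Med12 in orange, the gene in grey and triangles over sites of both lists away from annotated starts. The triangles are at Fos and Ier2, and Jun and Klf4 have no peak beyond their starts.

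For the gene lists below, the shares to read beside the counts are those of all coding genes. Of these, 41.8% had an RNAP2 start peak and 8.21% had both peaks at a start. Among those with an RNAP2 start peak, 2.57% reached 4 kb. Of 36 further primary response genes, 31 had an RNAP2 start peak, 10 of them with Med12 at the same start, with a median width of 2408 bp and 6 at 4 kb or more. The matricellular gene Cyr61 had the widest, 9485 bp with a score of 3100, and a Med12 peak of 3059 bp. Btg1, an inhibitor of proliferation, Dusp6, a phosphatase of ERK, Zfp36l1, which destabilises mRNA, and the pseudokinase gene Trib1 had RNAP2 peaks of 5778, 5729, 5398 and 4448 bp with Med12 at the start. Klf10 followed with 2587 bp. Klf6, at 4094 bp, was the widest without Med12. Egr4, Npas4, Csrnp1, Cebpb and Plk3 had no RNAP2 start peak.

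Of 10 other AP-1 and ATF subunits, 7 had an RNAP2 start peak, none reached 4 kb and only Fosl2, a Fos paralogue, had Med12, with an RNAP2 peak of 2291 bp and a Med12 score of 72.6. Jdp2, a repressor of AP-1, had the widest, 3886 bp, without Med12, and Fosl1, Batf and Batf3 had no peak. Among 9 genes for the factors that act on immediate early promoters, 8 had an RNAP2 start peak of 1046 to 2958 bp, the widest at Srf without Med12, and Creb1 alone had Med12 as well. With 1 of 10 and 1 of 9 genes, Med12 in these lists was near the 8.21% of all coding genes with both peaks. Of 13 heat shock genes, which respond to stress, all had an RNAP2 start peak, 11 with a score of 3100 or more, 10 at 4 kb or more and 7 with Med12. Among those with Med12 the widest were the chaperone genes Hsp90ab1 at 9105 bp, Hspa8 at 8978 bp and Hsp90aa1 at 8755 bp, followed by Hsph1 at 6094 bp, Dnajb1 at 5855 bp and Hspa1b at 5589 bp. Hspa5 at 6932 bp was the widest without Med12. Hspa1a and Hspa1b are near-identical copies whose reads could be divided between them, and Hspd1 and Hspe1 share 1 RNAP2 peak of 6669 bp, without Med12.

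The label of the tissue was checked in the same way, as limb against other tissues, and not as distal against proximal limb. All 10 genes listed as markers of distal forelimb mesenchyme had an RNAP2 start peak, and 2 of them had Med12 (Prrx1 and Twist1). The RNAP2 widths ran from 2360 bp at Shox2, with a score of 192, up to 13540 bp at Tbx5, the forelimb factor. Of 8 markers of other tissues or of hindlimb, Pitx1 and Pax6 had an RNAP2 start peak, of at most 2006 bp and a score of at most 254. Pax6 also had Med12, and Tbx4, Alb, Myh6, Neurod1, Ins2 and Cdx2 had no RNAP2 start peak. Of the limb markers, 9 of 10 reached 4 kb, with Hoxd12 and Hoxd13 sharing 1 peak of 10415 bp that counts for both. Only 1 of 10, Msx1, also reached a score of 3100, whereas 6 of the 10 immediate early genes reached both. Over all 9349 coding genes with an RNAP2 start peak, 106 reached both. Reaching both was not particular to the immediate early genes. The heat shock genes at 4 kb or more, 10 of 13, all had a score of 3100 or more. So did the further primary response genes at this width, 6 of 36. Both limits were picked once the values were known.

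**Figure D4:**
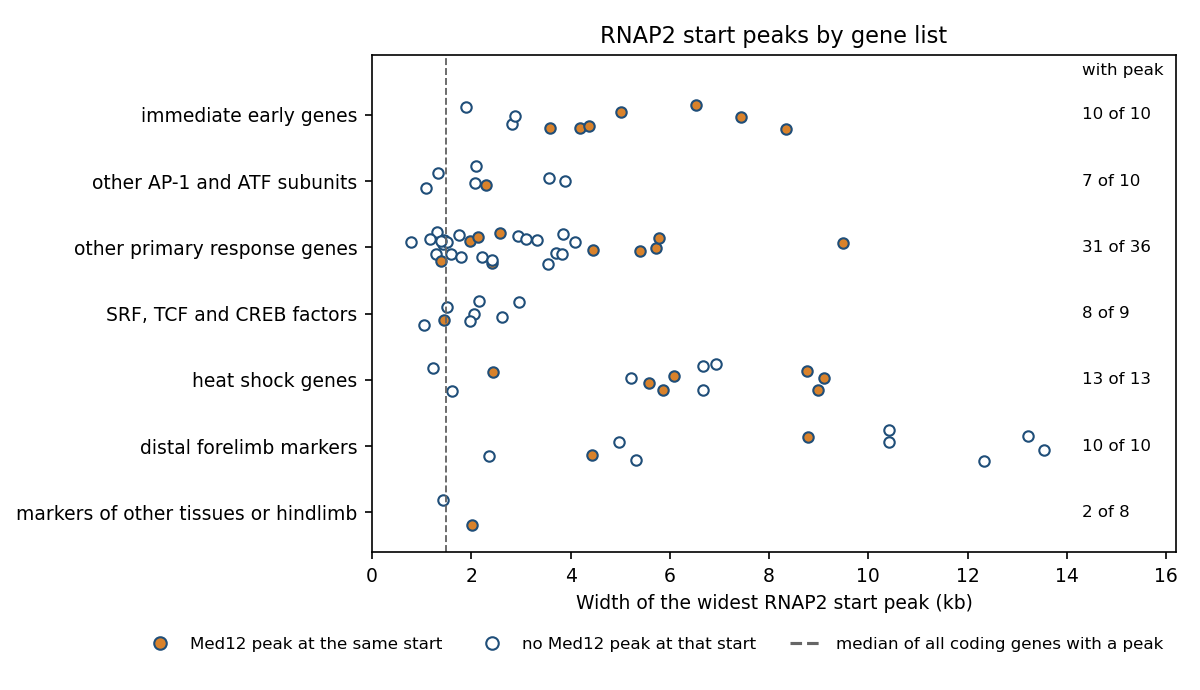
Width in kb of the widest RNAP2 start peak of each gene by gene list, with filled points where a Med12 peak lies at the same start, a dashed line at the median of all coding genes with a peak (1500 bp), and the number of genes with a peak at the right. The immediate early genes run from 1889 to 8335 bp, and their 7 filled points are the widest.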

How the data were processed

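RNAP2 and Med12 were profiled in distal forelimb cells at E12.5. Per the methods of the study, reads were trimmed by 1 base and aligned to mm9 using Bowtie, duplicates were dropped, and MACS 1.4.1 was run on each library. The value per peak is the score deposited by the authors, and the listed settings name no input control. The lists (20479 RNAP2 and 10634 Med12 peaks) reach down to a score of 40, a p-value of 0.0001, and weaker binding is not seen. Peaks of all 21 chromosomes lay inside the lengths of NCBIM37, the assembly of mm9.

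Gene starts came from GENCODE vM1. Overlaps of at least 1 bp were counted with Python 3.11.15, tested on simulated data, coordinates are 1-based, and figures used matplotlib 3.10.9. Motifs were sought on both strands except TATAAA, and a CArG box can overlap TATAAA. The genes and lists were chosen with earlier results of these data known. Named are the 10 genes, other genes that start inside their peaks and, from each other list, up to 6 genes with both peaks by RNAP2 width and the widest without Med12. Promoters of genes with both peaks were printed, chromosome 18 left out. Jund was left out since its outermost start is outside the peaks. The printed stretches, the limits of 4 kb and 3100, genes named for lacking a peak or lying nearby, and Msx1, Tbx5 and Shox2 were picked once their values were known. Alternatives tried were score minimums, intervals and sets of starts, neighbourhood lengths, overlaps and joined peaks. The input library was not analysed here.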

Additional observations from a re-analysis of the deposited data

How the results depend on the processing

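Of 68 values recomputed under 11 alternatives, 61 stayed within 1.5 times the reported one and 7 did not. With a score of at least 100, Med12 remained at the start of 3 immediate early genes (Jun, Jund and Egr1), alone or with RNAP2, and 8 Med12 peaks were left in the neighbourhoods, while over all coding genes Med12 was at a start in 2.22% and both lists in 2.08%. With a neighbourhood of 100 kb there were 67 RNAP2 and 23 Med12 peaks. A score of at least 50 left Med12 at 5 starts, without Junb and Klf4, against 6.67% of all coding genes, and requiring the start base inside the peak also left 5, without Ier2 and Klf4, against 7.27%. All 10 genes had an RNAP2 start peak under each of the 6 alternatives that apply to it. Joining peaks less than 500 bp apart raised the median RNAP2 width to 4599 bp. The lists give positions and scores without reads, and the counting error of a width or score is unknown.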
